A study of Arabidopsis thaliana with 12 samples.

Results

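Seedlings that expressed the seed regulator FUSCA3 (FUS3) on medium without sucrose were compared with wild-type (WT) seedlings fed sucrose, over all transcripts on the array. The comparison takes 3 arrays labelled FUS3 without sucrose and 3 labelled WT with sucrose, which are 6 of the 12 arrays of the study. It asks how far FUS3 alone equals sucrose alone, and which genes tell the 2 states apart. Transcripts of Arabidopsis thaliana seedlings 8 days old were measured on Affymetrix ATH1 arrays, where several short oligonucleotides, together called a probe set, report on a transcript as 1 signal. FUS3 was expressed from ESTpro:FUS3-strong in 1 line, 2-8, through a promoter that estradiol switches on. Estradiol at 5 µM is stated for the medium of line 2-8, but the design text speaks of inducing conditions for WT also, so whether WT received estradiol is not settled. WT seedlings of this comparison grew with 1.5% sucrose and line 2-8 without. The remaining 2 groups, WT without sucrose and line 2-8 with 1.5% sucrose, also have 3 arrays each. They show where the 2 states lie, and their arrays also enter the estimate of the spread used in the tests. Because the 2 states differ in line and in sucrose at once, the parts of line, estradiol and sucrose in a difference cannot be told apart within the 6 arrays.

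FUS3 is a B3-domain transcription factor of the developing embryo, where it promotes the making of storage proteins and oil and delays germination. Sucrose is both a carbon source and a signal in seedlings. It raises genes for storage and pigment synthesis and lowers genes that the plant uses when carbon is scarce. Whole seedlings were sampled, so fewer cells of a type and less transcript per cell cannot be told apart in any value below. The level of FUS3 itself was not analysed here.

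Most transcripts were close between the 2 states, but each state was also close to WT without sucrose. The median absolute log2 difference of group means was 0.209 between the 2 states. It was 0.206 between FUS3 without sucrose and WT without sucrose, and 0.243 between WT with and WT without sucrose. Of 22746 probe sets tested, 18860 (82.9%) lay within 2-fold by an equivalence test, which asks whether the difference is smaller than log2 1 in either direction (limma, adjusted p under 0.05). A difference was called for 3993 probe sets (17.6%), of which 1713 (7.53%) were higher and 2280 (10%) lower in FUS3 without sucrose. Many of the called differences were small: 2454 of them, or 61.5%, also lay within 2-fold. At least 2-fold differences were called for 393 higher probe sets (1.73%) and 508 lower ones (2.23%), 901 in all. Another 2347 probe sets were neither called nor shown to lie within 2-fold. The 3 arrays of one state did not overlap the 3 of the other in 31.6% of all probe sets. The median log2 difference over all probe sets was -0.01, and the median standard error (SE) was 0.15. The direction split depended on scaling: with the median of each array subtracted, 2767 of 4309 called probe sets were higher, which is 64.2% against 42.9%. The extremes were one-sided in size, with a highest log2 difference of 8.94 and a lowest of -3.83.

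**Figure D1:**
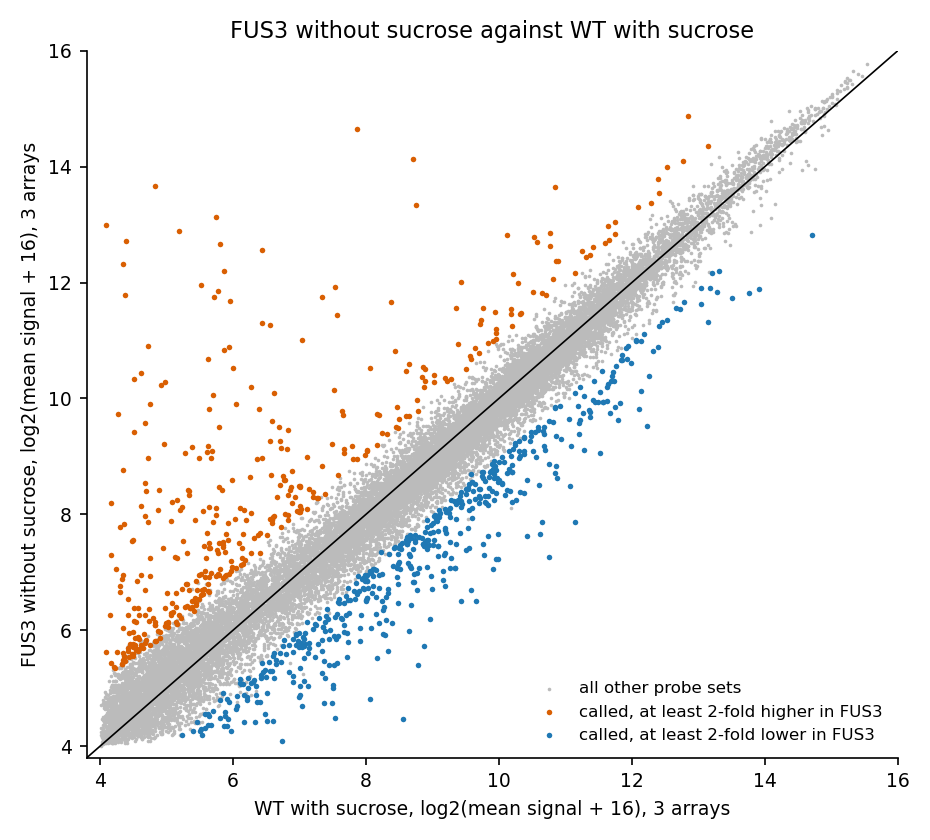
Each point is 1 probe set, with log2(mean signal + 16) of the 3 WT arrays with sucrose on the x axis and of the 3 FUS3 arrays without sucrose on the y axis. The black line marks equal signals. The 393 orange probe sets reach much farther from the line than the 508 blue ones, and most of the strongest orange points start near the bottom of the WT scale.

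The 12 arrays had been scaled to the same trimmed mean, near 1000. Between arrays of different states, Pearson correlations over all probe sets were 0.966 to 0.972, and within the 2 states they were 0.985 to 0.989. Against WT without sucrose they were 0.9685 to 0.9739 for FUS3 without sucrose and 0.9668 to 0.9752 for WT with sucrose. Median signals of the FUS3 arrays without sucrose were 387 to 397, below the 415 to 428 of the WT arrays with sucrose. An exact two-sided permutation test gave p = 0.1, the smallest value that 3 against 3 arrays allow. The 25S rRNA control read 1778, 1848 and 2639 against 2600, 3264 and 4609 (exact permutation p = 0.2). Ratios of 3 prime to 5 prime actin probes were 3.03 to 3.96 against 2.82 to 3.07 (exact permutation p = 0.3). The part of these controls in the results was not tested. Signals are MAS5 values in arbitrary units without detection calls, and log2 differences were taken after 16 was added, which makes the change of low signals look smaller. The labels call the arrays of a group biological replicates.

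The probe sets with at least 2-fold differences were then placed by WT without sucrose. That group is neither of the 2 states, though its arrays entered the estimate of the spread. Among the 393 higher probe sets, the mean of WT without sucrose was nearer to WT with sucrose in 266 (67.7%) and nearer to FUS3 without sucrose in 127. Among the 508 lower probe sets it was nearer to FUS3 without sucrose in 431 (84.8%) and nearer to WT with sucrose in 77. In most higher probe sets the FUS3 arrays were therefore the ones that stood away from WT without sucrose, and in most lower probe sets the sucrose-fed WT arrays were. FUS3 with sucrose was nearer to FUS3 without sucrose in 299 of the 393 and in 287 of the 508.

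Seed storage protein genes were among those that differed most in size between the states. Of 7 measured members 4 were higher in FUS3 without sucrose and none was lower, where 7.53% and 10% of all probe sets were. The median log2 difference was 4.42 against -0.01 over all probe sets. PAP85, a vicilin-like storage protein of seeds, read 3828, 4165 and 3962 in FUS3 without sucrose. In WT with sucrose it read 23.1, 30.2 and 36.5. All FUS3 arrays lay far above all WT arrays, and the log2 difference was 6.45 ± 0.11 (SE, n = 3 and 3 arrays; limma adjusted p = 4.04e-14). In WT without sucrose PAP85 was at 63.3 ± 8.3 (SD, n = 3), so both WT groups were low. With sucrose added, the FUS3 line reached 32316 ± 562. AT2G28490, placed in the same list, read 1659, 1704 and 1540 against 42.6, 55.3 and 1.72, a log2 difference of 5.30 ± 0.37. AT4G36700 and AT1G03890 differed by log2 5.83 ± 0.19 and 4.42 ± 0.17. The 3 members that were not called were AT2G18540 at log2 0.63 ± 0.23 (adjusted p = 0.0819), AT1G07750 at -0.18 and AT2G28680 at 0.09. The last 2 lay within 2-fold by the equivalence test. For AT2G28680 that result cannot show likeness, because its signals were low and scattered and the value added before log2 shrinks such differences. It read 8.98, 10.8 and 32.5 against 43.8, 7.68 and 3.05, with an SE of 0.44. The 95% limits of its log2 difference were -0.85 and 1.03, so the upper one lay beyond 2-fold.

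Genes listed for proteins of lipid droplets, the oil stores of seeds, followed in the same direction. Of 9 measured members 7 were higher and 1 was lower, against 7.53% and 10% of all probe sets, with a median log2 difference of 1.81. OLEO3, an oleosin, read 1054, 1235 and 1175 in FUS3 without sucrose and 69.9, 55.1 and 58.4 in WT with sucrose. The groups did not overlap, and the log2 difference was 3.93 ± 0.15 (adjusted p = 3.49e-10). AT3G01570 read 2366, 2651 and 2535 against 83.8, 91.1 and 35.9, with a log2 difference of 4.94 ± 0.23. AT3G18570 and AT2G47780 differed by 3.19 ± 0.22 and 1.81 ± 0.20. The exception was AT1G67360, at 1103, 1258 and 1126 against 1919, 1994 and 2206. It was lower by log2 -0.80 ± 0.12 (adjusted p = 0.000357), and WT without sucrose, at 835 ± 129, was lower still. One call was fragile: AT5G16460 differed by log2 1.08 ± 0.30 (adjusted p = 0.023), and its adjusted p reached 0.0918 when single arrays were left out. These were FUS3 without sucrose replicates 2 and 3 and WT with sucrose replicates 2 and 3.

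The genes that make oil and fatty acids differed less than the listed lipid droplet genes. All 8 measured members of plastid fatty acid synthesis lay within 2-fold, as did 82.9% of all probe sets, and 2 of the 8 were called higher. AT4G16155 read 2975, 3129 and 3368 against 2147, 2177 and 2171, a log2 difference of 0.54 ± 0.08 (adjusted p = 0.000479). With array medians subtracted, 6 of the 8 were called higher. Both measured members of triacylglycerol assembly lay within 2-fold and neither was called. ICL, isocitrate lyase of the glyoxylate cycle, which turns stored oil into sugar, did differ. It read 3278, 4367 and 3955 against 170, 118 and 223, with no overlap and a log2 difference of 4.41 ± 0.23 (adjusted p = 1.55e-08). The triacylglycerol lipase gene SDP1 lay within 2-fold, at log2 0.12 ± 0.09 (adjusted p = 0.424). SDP1-LIKE was at 0.36 ± 0.35 (adjusted p = 0.544) and was not shown to lie within 2-fold. AIM1, of fatty acid beta-oxidation, was called at log2 -0.25 ± 0.08 (adjusted p = 0.0437), but its adjusted p ranged up to 0.155 when 1 array was left out. It lost its call without any single array except WT with sucrose replicate 1.

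Late embryogenesis abundant (LEA) proteins protect drying seeds and cells under stress, and their genes split in 2 directions. In the first list 5 of 10 measured members were higher and 3 lower, against 7.53% and 10% of all probe sets. LEA, the gene with that symbol, read 568, 591 and 544 against 34.6, 36.2 and 28.7, a log2 difference of 3.57 ± 0.15. M10, another seed protein gene, differed by 3.06 ± 0.21 and AtLEA4-1 by 2.56 ± 0.19. The cold-regulated chloroplast proteins went the other way. COR15A read 129, 168 and 124 in FUS3 without sucrose and 530, 525 and 531 in WT with sucrose, a log2 difference of -1.81 ± 0.22 (adjusted p = 5.92e-05). COR15B differed by -1.92 ± 0.14, and WT without sucrose, at 365 ± 23, lay close to the FUS3 arrays without sucrose. A wider list of 33 LEA and dehydrin loci, drawn up after values had been seen, held 15 higher and 6 lower members. The largest differences in it were AT3G15670 at log2 5.30 ± 0.30 and AT4G38410 at -2.71 ± 0.24.

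**Figure D2:**
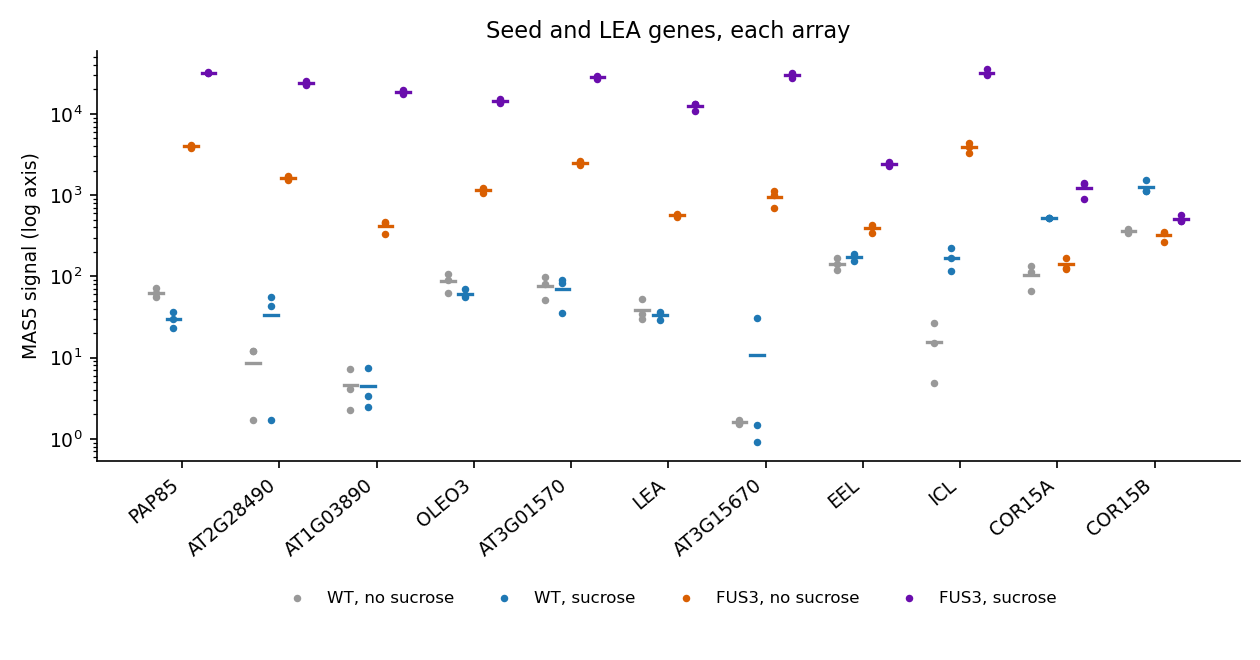
Dots are single arrays and short bars are means of 3 arrays, for 11 genes in the 4 groups, with the MAS5 signal on a log axis. For the storage, oleosin, LEA and ICL genes the orange FUS3 arrays without sucrose lie between the low WT groups and the high purple FUS3 arrays with sucrose, while COR15A and COR15B are higher in the blue WT arrays with sucrose than in the orange ones.

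Among regulators of seeds and embryos, 1 of 3 measured genes was called. EEL, a bZIP factor of seed maturation, read 429, 401 and 345 against 177, 157 and 191, a log2 difference of 1.09 ± 0.14 (adjusted p = 7.72e-05). BZIP53, another bZIP factor of seed genes, lay within 2-fold at log2 0.03 ± 0.08 (adjusted p = 0.876). BBM, an AP2 factor of embryos, was at -0.95 ± 0.42 (adjusted p = 0.141) and its arrays overlapped. AOP3, which modifies glucosinolate side chains, read 354, 642 and 565 against 5.02, 47.0 and 16.3, a log2 difference of 3.90 ± 0.31. The beta-glucosidase gene BGLU19 differed by 2.60 ± 0.24. It was the only one of 22 measured beta-glucosidase genes that was higher, while 6 were lower, among them BGLU28 at -1.82 ± 0.24. Of these 7 calls 5 held whichever single array was left out. Of all probe sets 7.53% were higher and 10% lower.

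Among probe sets that name 1 gene and do not overlap between the states, the 2 largest increases fell on loci for which the annotation used here gives no name. AT1G47540 read 12460, 13067 and 13364 in FUS3 without sucrose against 27.8, 5.82 and 3.13 in WT with sucrose. Its log2 difference was 8.94 ± 0.33 (adjusted p = 3.34e-10). AT2G34700 followed at 7.39 ± 0.23 and then PAP85, described above. Further unnamed loci were AT2G15010 at 6.14 ± 0.21 and AT3G63040 at 5.83 ± 0.22. AT3G54940 and AT1G65090 differed by 5.36 ± 0.20 and 5.33 ± 0.19. For these 6 unnamed loci the mean of WT without sucrose was under 40, and FUS3 with sucrose was higher than FUS3 without it.

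Genes of the iron deficiency response also separated the states. Their list was drawn up after values had been seen, so its count is a description: 7 of 9 measured members were higher and none lower. Over all probe sets 7.53% were higher and 10% lower. Among the 7 was AT1G74770, whose other, dimmer probe set was not called, at log2 0.69 ± 0.43 (adjusted p = 0.32). The arrays of that probe set overlapped. BHLH101, a transcription factor that plants raise when iron is short, read 576, 562 and 533 against 25.1, 15.9 and 36.4. The groups lay far apart, with a log2 difference of 3.81 ± 0.17 (adjusted p = 1.97e-09). WT without sucrose was in between at 153 ± 15, and FUS3 with sucrose was highest at 1726 ± 105. AT1G47400 read 2970, 3372 and 3393 against 319, 253 and 376, a log2 difference of 3.31 ± 0.12. PYE, a bHLH regulator of iron homeostasis, read 820, 957 and 934 against 448, 454 and 448, a log2 difference of 0.98 ± 0.10. The members that were not called, AT3G13610 and AT1G18910, lay within 2-fold at -0.32 ± 0.18 and -0.11 ± 0.13.

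A second set of higher genes was set apart by low values in WT with sucrose. CCS, the copper chaperone of superoxide dismutase, read 6817, 6774 and 6372 in FUS3 without sucrose and 1458, 1840 and 1210 in WT with sucrose. The log2 difference was 2.16 ± 0.11 (adjusted p = 1.49e-08). WT without sucrose was at 8097 ± 202 and FUS3 with sucrose at 1884 ± 100, so both groups without sucrose were high and both with sucrose were low. THI2.2, a thionin of plant defence, had the same order. It read 6569, 6704 and 8428 against 1203, 1167 and 943, a log2 difference of 2.69 ± 0.13. WT without sucrose was at 7263 ± 1222 and FUS3 with sucrose at 1450 ± 108.

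Several glutaredoxins, small enzymes that reduce disulphides, also differed between the states. In a list of all measured loci placed in the CC-type class, drawn up after values had been seen, 8 of 17 were higher and 3 lower. Over all probe sets these shares were 7.53% and 10%. AT3G62950 read 310, 141 and 253 against 19.9, 4.26 and 4.59, a log2 difference of 3.28 ± 0.29 (adjusted p = 3e-06). AT4G15680 read 818, 680 and 646 against 88.7, 115 and 58.1, a log2 difference of 2.85 ± 0.24. WT without sucrose was at 566 ± 89 and 1015 ± 265 for these genes, above FUS3 without sucrose in the means. AT4G15660, AT4G15680, AT4G15690 and AT4G15700 are neighbours whose sequences are close, so their probes may share signal and they are uncertain as separate genes. ROXY2 differed by 1.75 ± 0.16, and its means in FUS3 were close without and with sucrose, at 245 and 221. On the lower side stood AT5G11930 at -1.30 ± 0.17, AT2G47880 at -1.09 ± 0.19 and AT4G33040 at -0.78 ± 0.16.

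**Figure D3:**
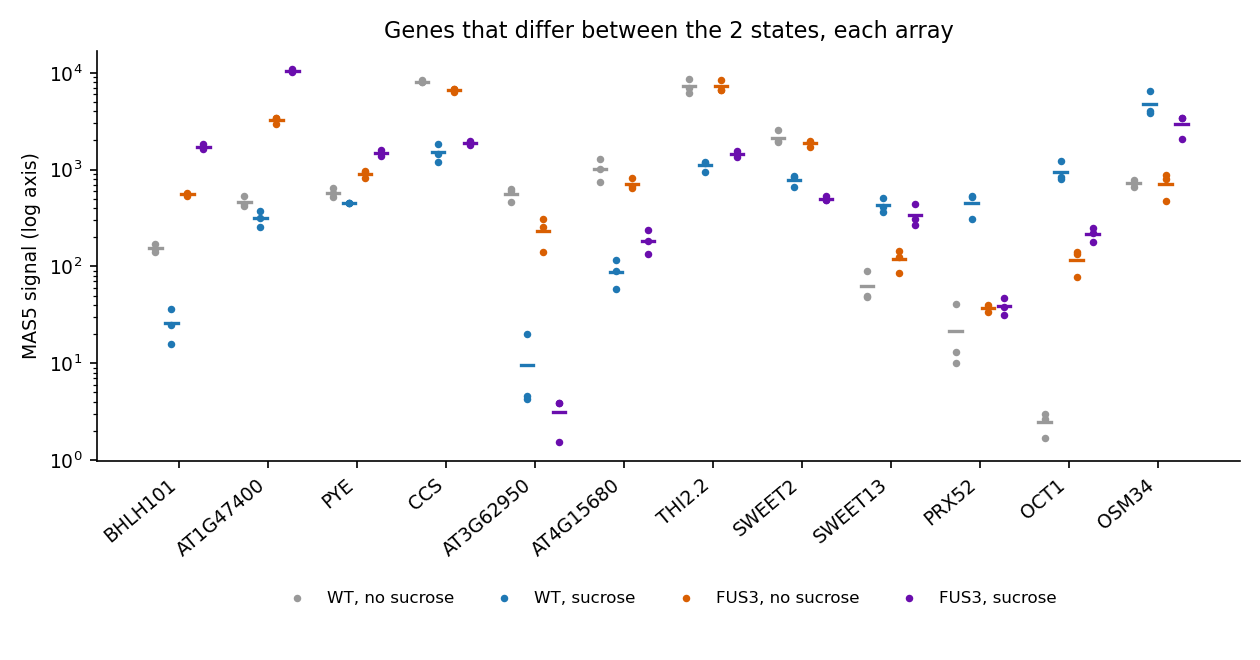
Dots are single arrays and short bars are means of 3 arrays, for 12 genes in the 4 groups, with the MAS5 signal on a log axis. CCS, THI2.2, SWEET2 and the glutaredoxin loci AT3G62950 and AT4G15680 are high in both groups without sucrose, whereas BHLH101, AT1G47400 and PYE are highest in the 2 FUS3 groups.

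Sugar transporters of the SWEET family differed in both directions. In the list of sucrose and hexose handling 4 of 18 measured members were higher and 4 lower, against 7.53% and 10% of all probe sets, with a median log2 difference of 0.06. The call of SWEET11 was lost without FUS3 replicate 1 or WT replicate 3, and that of AT1G62660 without FUS3 replicate 1 or WT replicate 2, with adjusted p up to 0.0926 and 0.0523. SWEET2 read 1957, 1694 and 1941 against 842, 853 and 655, a log2 difference of 1.24 ± 0.12 (adjusted p = 1.07e-05). SWEET13 read 125, 144 and 86.4 against 408, 362 and 512, a log2 difference of -1.73 ± 0.25. SWEET10 was lower as well, by -1.44 ± 0.24, although WT without sucrose was higher than either state at 533 ± 76. SWEET16 was higher, by 0.68 ± 0.13.

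Genes that plants raise under sugar starvation gave calls in both directions. Of 10 measured members 4 were higher and 2 lower, against 7.53% and 10% of all probe sets. Within 2-fold lay 8 of the 10, a share close to the 82.9% of all probe sets. IVD, which breaks down leucine, read 1760, 1872 and 1712 against 864, 832 and 1008, a log2 difference of 0.97 ± 0.08 (adjusted p = 1.69e-06). MCCA, of the same pathway, read 2332, 1805 and 1919 against 1009, 1133 and 1191, a log2 difference of 0.85 ± 0.10. WT without sucrose was above both states, at 3507 ± 50 for IVD and 5385 ± 553 for MCCA. The other 4 calls, MCCB, ETFQO, ETFALPHA and ETFBETA, had log2 differences between -0.37 and 0.32, and each was lost when some single array was left out, with adjusted p up to 0.174. Each of the 6 arrays was involved in at least one of these losses.

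Pigment genes and starch genes were lower in FUS3 without sucrose where they differed. Of 7 measured flavonoid and anthocyanin genes 3 were lower and none was higher, where 10% of all probe sets were lower. One of these calls, that of AT4G14090, was lost without FUS3 replicate 1, FUS3 replicate 3 or WT replicate 3, with adjusted p up to 0.0685. DFR, which makes the precursors of anthocyanins, read 380, 479 and 458 against 697, 936 and 1271. The log2 difference was -1.08 ± 0.20 (adjusted p = 0.0022), and WT without sucrose was lower than both at 161 ± 34. UGT78D1, which adds a sugar to flavonols, differed by -0.55 ± 0.08. APL3, a subunit of the enzyme that commits glucose to starch, read 180, 172 and 184 against 344, 431 and 509, a log2 difference of -1.17 ± 0.16. It was the only called gene of 4 measured in its list.

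The 12 measured members of the list of nitrogen uptake and assimilation were all transporters, some of them of glucosinolates, and included no assimilation enzyme. Of the 12, 7 were called lower and none higher, against 10% and 7.53% of all probe sets. Of the other 5 members 3 lay within 2-fold, and 2 of the 7 calls, AT1G59740 and AT1G33440, were lost when some single array was left out, with adjusted p up to 0.144 and 0.0798. Between them these losses involved each of the 6 arrays. NRT2.5, a nitrate transporter, read 51.4, 30.1 and 43.7 against 112, 192 and 173, a log2 difference of -1.59 ± 0.29. GTR2, which carries glucosinolates, read 1319, 1567 and 1116 against 2328, 2225 and 2112, a log2 difference of -0.74 ± 0.12. BCAT4, which starts the methionine chain extension of glucosinolates, was also lower, by -0.98 ± 0.10. It read 4396, 4670 and 4832 against 9177, 9842 and 8539.

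Decreases are ranked here among probe sets that name 1 gene and do not overlap between the states. AT2G25625 read 13.6, 14.4 and 51.0 in FUS3 without sucrose against 377, 323 and 572, a log2 difference of -3.45 ± 0.30. PRX52, a class III peroxidase of the cell wall, read 33.6, 39.8 and 37.8 against 519, 530 and 309, a log2 difference of -3.11 ± 0.29 (adjusted p = 6.28e-06). OCT1, an organic cation transporter, read 77.5, 141 and 134 against 832, 1221 and 794, a log2 difference of -2.86 ± 0.23. WT without sucrose was at 2.46 ± 0.67 for OCT1, so FUS3 without sucrose lay between the 2 WT groups. AT4G19430, SP1L2 and AT5G53990 differed by -3.01 ± 0.32, -2.74 ± 0.18 and -2.73 ± 0.34. JAL23, a jacalin-like lectin, differed by -2.40 ± 0.29. AT4G08050, annotated as a pseudogene, had a different order, with signals of 1.12, 0.893 and 1.01 against 93.3, 73.3 and 105. It was near 1 in FUS3 with sucrose too and at 111 ± 25 in WT without sucrose, so both groups of line 2-8 were low and both WT groups were high.

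Several listed chitinase and pathogenesis-related genes were lower in FUS3 without sucrose. Their list was drawn up after values had been seen, and 6 of its 8 measured members were lower and none higher. Of all probe sets 10% were lower. The count describes these 8 genes and not the families. OSM34, an osmotin-like protein, read 475, 790 and 889 against 4010, 6434 and 3830, a log2 difference of -2.71 ± 0.24 (adjusted p = 3.55e-06). AT2G43590 read 755, 859 and 1061 against 4138, 5191 and 3841, a log2 difference of -2.28 ± 0.13. ChiC, a chitinase, differed by -2.16 ± 0.24 and CHI by -1.66 ± 0.23. In the separate list of defence and jasmonate genes 4 of 16 measured members were higher and 2 lower, against 7.53% and 10% of all probe sets. The list also holds PDF1A and PDF1B, peptide deformylases that share the PDF symbol with defensins. Its counts are therefore not of defence genes alone. Of its 6 calls 4 held whichever single array was left out. In that list the plant defensin PDF1.2 was lower, at -1.97 ± 0.39, whereas PDF2.1 was higher, at 0.93 ± 0.16.

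Cell wall genes differed in both directions. Of 29 expansin and wall-loosening genes 8 were lower and 3 higher, against 10% and 7.53% of all probe sets. With array medians subtracted the split was nearly even, at 7 lower and 6 higher. Of the 11 calls in the main fit 8 held whichever single array was left out. EXLB1, an expansin-like protein, read 642, 686 and 639 against 2080, 2421 and 2551, a log2 difference of -1.81 ± 0.14. XTH19, which cuts and rejoins xyloglucan, differed by -1.12 ± 0.11, EXPB3 by -0.98 ± 0.11 and EXPA8 by -0.86 ± 0.10. Among 15 members of glycosyl hydrolase family 9, a list drawn up after values had been seen, 4 were lower and none higher. Of these 4 calls 3 held whichever single array was left out. GH9B13 read 517, 646 and 523 against 1983, 1705 and 2768, a log2 difference of -1.88 ± 0.19, and GH9B8 differed by -1.72 ± 0.18.

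Hormone genes gave a mixed picture. Of 15 auxin genes 2 were higher and 6 lower, against 7.53% and 10% of all probe sets. Of the 8 calls 4 were lost when some single array was left out, and each of the 6 arrays was involved. WES1 and GH3.3, which attach amino acids to auxin, differed by -0.91 ± 0.11 and -1.04 ± 0.16. YUC4, an auxin synthesis gene, was higher at 138, 113 and 158 against 36.0, 9.66 and 50.9, a log2 difference of 1.76 ± 0.34 (adjusted p = 0.00236). The gibberellin receptor GID1B was lower by -0.87 ± 0.16.

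Genes of green tissue differed by less than 2-fold between the states. All 10 measured nuclear photosystem and antenna genes, all 4 Calvin cycle genes and all 4 chlorophyll synthesis genes lay within 2-fold. Over all probe sets 82.9% did, and 17.6% were called. Small differences were nevertheless called for 2 photosystem genes, which were higher, for 1 Calvin cycle gene and for 3 of the 4 chlorophyll synthesis genes, 2 higher and 1 lower. These counts depended on scaling. With array medians subtracted all 4 Calvin cycle genes were called higher, and after quantile normalization no photosystem or Calvin cycle gene was called. LHCB4.1, a light-harvesting protein, read 36601, 37498 and 36164 against 34143, 33760 and 36465, a log2 difference of 0.08 ± 0.07 (adjusted p = 0.528). Of 69 plastid-encoded genes none was called and 50 lay within 2-fold. SBPASE, of the Calvin cycle, was called higher at 0.38 ± 0.08 (adjusted p = 0.0034), but its adjusted p was 0.113 after quantile normalization. The few markers of other cells, both root hair genes, all 3 guard cell genes and the trichome gene TRY, lay within 2-fold and none was called. As 82.9% of all probe sets lay within 2-fold, so few genes cannot show whether these cells were alike. All 6 measured cell cycle and histone genes also lay within 2-fold, with HTB2 and HTB4 at -0.06 ± 0.07 and -0.03 ± 0.07.

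Some genes lay within 2-fold in the 2 states and yet far from WT without sucrose. These were picked as the largest such shifts among genes within 2-fold, and both shifts use the same 3 arrays of WT without sucrose, so their sizes are a description. AT4G25790 read 287, 411 and 293 in FUS3 without sucrose and 282, 354 and 252 in WT with sucrose, where WT without sucrose was at 53.2 ± 16.2. AT5G37990 was at 2451 ± 397 and 3251 ± 1199, against 648 ± 121. UGT71C1, a glycosyltransferase, was at 799 ± 163 and 624 ± 54, against 192 ± 50. The other rises were those of AT3G28550, AT5G47980 and AT1G14960. On the lower side, AT2G15960 was at 4511 ± 780 and 3552 ± 273, against 10540 ± 1661. AT3G10020 was at 1714 ± 102 and 1135 ± 78, against 4596 ± 324. ATL8, a RING-finger protein, was at 253 ± 41 and 201 ± 26, against 628 ± 77. AT4G37220, AT4G33980 and AT5G57655 were the other 3. AT3G10020 and AT5G57655 were nevertheless called higher in FUS3 without sucrose, by log2 0.59 ± 0.09 (adjusted p = 0.000616) and 0.68 ± 0.15 (adjusted p = 0.00605), with no overlap of arrays. AT1G14960, at -0.44 ± 0.15 (adjusted p = 0.0561), gained a call under 4 alternatives.

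**Figure D4:**
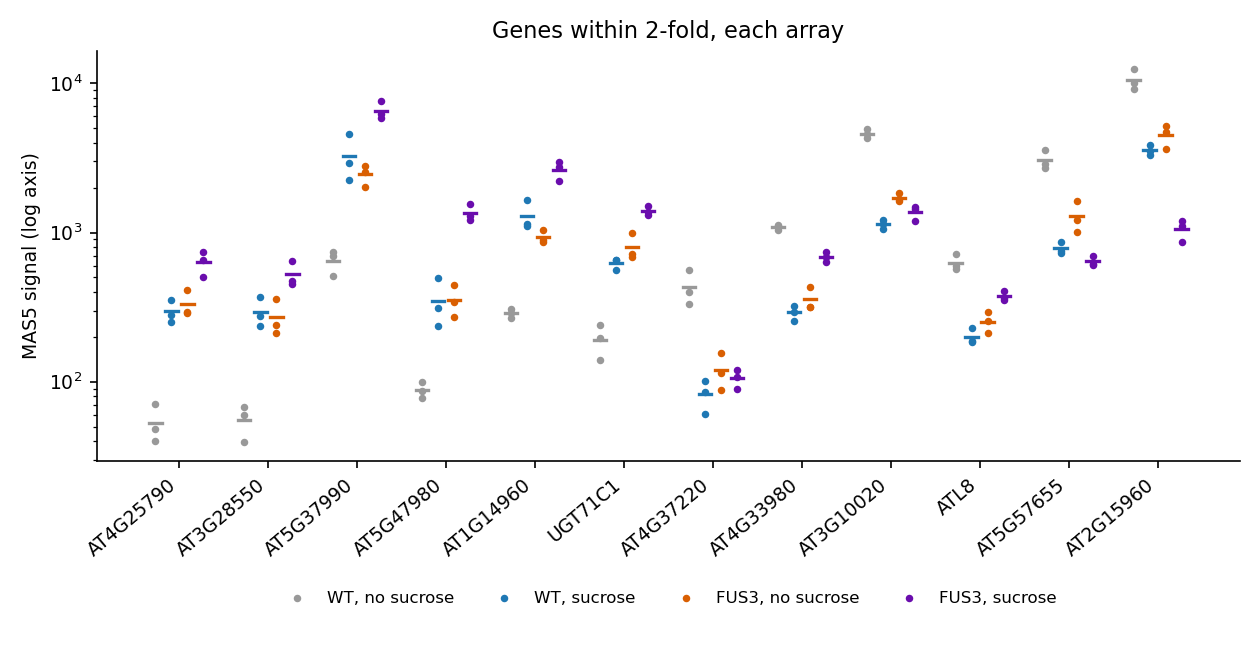
Dots are single arrays and short bars are means of 3 arrays, for the 6 genes that were higher and the 6 that were lower than in WT without sucrose in both states, with the MAS5 signal on a log axis. In each gene the orange and blue means lie within 2-fold of each other and the grey WT arrays without sucrose lie apart.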

How the data were processed

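The authors deposited a MAS5 intensity on a linear scale for each probe set of each array, made in Affymetrix Expression Console per the submitters' processing notes, which carry no versions. Each array was scaled to a trimmed mean near 1000. Of 22810 probe sets, 64 controls were left out. After 16 was added and log2 taken, the 4 group means were fitted over 12 arrays with limma 3.58.1 (R 4.3.3), with a trend in the variance. Benjamini-Hochberg adjustment ran over the 22746 probe sets tested, and a difference was called at an adjusted p under 0.05. Likeness was tested by 2 one-sided tests against log2 -1 and 1. A single SE is the moderated one.

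The probe table names 13513 probe sets by 1 gene, and 8730 are tested without a name. Where a locus has several probe sets, the brightest over 12 arrays stands for it. Named genes were the 10 largest called differences each way without overlap, up to 4 called members of each list where enough members were called (at least 3, or 1 in 3), and 6 shared shifts each way against WT without sucrose. Other genes in the text were chosen after their values were seen. The members and lists were chosen with earlier results of these data known, and 7 lists were added after values had been seen. The alternatives were other added values, scalings, a filter, fewer arrays, a replicate block, no moderation, no trend and leaving out each array. Steps were tested on simulated data. Figures used matplotlib 3.10.9 in Python 3.11.15.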

Additional observations from a re-analysis of the deposited data

How the results depend on the processing

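The count of called probe sets, 3993, ranged from 2775 to 4309 over other added values, scalings, the filter, only the 6 arrays, no moderation and no trend. Leaving out each of the 6 arrays gave 3007 to 3556. Requiring at least 2-fold left 901. The count within 2-fold, 18860, became 11214 with bounds of 1.5-fold, and 17724 to 18064 when single arrays were left out. It depended on the added value, at 15218 with 1 added and 21690 with 64 added. The share of higher calls was 42.9%, and 64.2% with array medians subtracted. Same-numbered arrays of the 2 states had deviations from their group means that correlated at 0.0095 to 0.0766, and other-numbered arrays at -0.0949 to 0.0462. With a replicate block 4230 probe sets were called. Whether replicate numbers mark a weak pairing of arrays is not settled by these values. No gene checked changed direction under an alternative while being called there or in the main fit. Some genes that were not called did change sign, such as LHCB4.1, at log2 -0.09 to 0.17. Of 126 named genes checked, 103 were called. Under at least 1 alternative 12 of these lost the call: AT5G16460, AIM1, MCCB, ETFQO, ETFALPHA, ETFBETA, SBPASE, SWEET11, AT1G62660, AT4G14090, AT1G33440 and AT1G59740. Another 3 gained one: AT2G18540, AT1G14960 and AT2G15960. Counts of called list members under quantile normalization and median subtraction moved by over 1.5 times in 12 of 98 cases, among them 0 in place of 2 photosystem genes and 6 in place of 2 fatty acid synthesis genes. The causes were not tested. The number of arrays limits the precision, and signals carry no detection calls.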

Other observations

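Enzymes that modify small molecules differed in part between the states. Of 51 UDP-glycosyltransferase genes 3 were higher and 6 lower, or 9 in all, a share close to that of all probe sets (17.6%). UGT72E2, which glucosylates lignin precursors, read 712, 1096 and 752 in FUS3 without sucrose against 2530, 2982 and 2406 in WT with sucrose, a log2 difference of -1.63 ± 0.16 (SE, n = 3 and 3 arrays; limma adjusted p = 6.95e-06). UGT76E2 and UGT73B1 were higher, by 1.50 ± 0.24 and 1.05 ± 0.12. Of 13 glutathione S-transferase genes 5 were lower and none higher, with GSTU20 at -0.59 ± 0.09. With array medians subtracted 4 were lower and 3 higher, and after quantile normalization 3 were lower and 1 higher. Of the 5 calls in the main fit 3 held whichever single array was left out. Of 22 cytochrome P450 genes, most of them of the CYP71B subfamily, 6 were lower and none higher, with CYP71B22 at -1.88 ± 0.25. With array medians subtracted 3 were lower and 1 higher. Of the 6 calls in the main fit 3 held whichever single array was left out. WT without sucrose, at 395 ± 8, was above FUS3 without sucrose for CYP71B22. Against these, 7.53% of all probe sets were called higher and 10% lower.

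Single genes of other families also told the states apart. AT5G64120, listed as peroxidase 71, read 5698, 6329 and 6888 against 915, 2392 and 1900, a log2 difference of 1.96 ± 0.24 (adjusted p = 7.98e-05). The subtilase gene SBT4.12 was higher by 0.99 ± 0.11 and SBT3.3 lower by -1.49 ± 0.27. The AP2-type factor tny read 1364, 1184 and 1133 against 529, 507 and 487, a log2 difference of 1.24 ± 0.13, and both other groups lay near the lower level, at 589 ± 119 and 692 ± 44. The bZIP factor HYH and the cold-regulated gene COR27 were higher by 0.74 ± 0.09 and 1.10 ± 0.16.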
